A study of Mus musculus with 6 samples.

Results

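NF-κB is a family of dimeric transcription factors that induce genes of inflammation and cell survival, and the 10 genes described here were listed by name as its subunits (Nfkb1, Nfkb2, Rela, Relb and Rel), its classical inhibitors (Nfkbia, Nfkbib and Nfkbie) and the induced feedback genes Tnfaip3 and Birc3. All 10 were found by symbol among the 53465 gene identifiers of the count table, and all 10 were among the 13550 genes with enough counts to be tested. Transcript levels were compared between parental 4T1 cells (P), a mouse mammary carcinoma line, and their axitinib-resistant derivative (4T1 AxR), with 3 RNA sequencing libraries from each line. Axitinib inhibits VEGF receptor kinases. AxR cells came from metastatic lesions that arose after surgery in Balb/c mice dosed with it at 100 mg/kg/day, and were then cultured in 0.5 μM of the drug for over 2 months. The label on growth medium names 0.5 μM axitinib for all 6 samples, whereas treatment is labelled for AxR samples alone and the study calls its P cells vehicle-treated. AxR is 1 derived line in these data, so drug exposure, growth in the animal and separate culture cannot be told apart. The sources used here do not say whether the 3 libraries of a line came from separate cultures, and p-values measure only the spread between these libraries.

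In resting cells, NF-κB dimers are held in the cytoplasm by IκB proteins. Signals from receptors for TNF, IL-1 or microbial products activate the IKK kinase complex, IκB is phosphorylated and degraded, and the freed dimers enter the nucleus. Among the genes they induce are Nfkbia and Tnfaip3, whose products shut the pathway down again, and Birc3, an inhibitor of apoptosis. A second, noncanonical route acts through the kinase NIK and yields dimers of RelB with the processed product of Nfkb2. In mammary carcinoma cells the pathway is known for its control of cytokine, matrix protease and survival genes. The libraries measure transcripts, so neither the location nor the activity of the proteins was observed.

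The libraries held between 15495260 and 17294525 estimated counts, and a count of 3 corresponded to between 0.171 and 0.196 CPM (counts scaled to a common normalized library size). Replicates of a line differed by more than counting noise (chi-square over its degrees of freedom 4.99 at the lowest and 19.2 at the highest, between AxR replicates 1 and 3), and all 6 libraries were kept. The labelled tissue was checked with 6 epithelial markers, all of which were tested, with a summed level of 1886 to 2105 CPM in P and 3000 to 3176 CPM in AxR libraries. By the test described below, 5 of these were called higher and 1 (Krt19) lower in AxR cells. Over all genes tested, 32.8% were called higher and 30.8% lower. The part of these markers in the results below was not tested. None of the 9 leukocyte markers exceeded 5 counts in any library (summed level 0.261 to 0.520 CPM in P and 0.398 to 0.572 CPM in AxR). Tyrobp, Fcer1g, Adgre1 and Cd3e had no count at all. The 5 endothelial markers had at most 7 counts each (summed level 0.456 to 0.635 CPM in P and 0 to 0.191 CPM in AxR), with Kdr at 0 in every library. In bulk RNA, fewer cells that express a gene and less of its RNA per cell cannot be told apart.

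The members did not move in 1 direction. Tnfaip3 rose 2.42-fold in AxR cells, and Nfkb1, Rel and Nfkbie rose by 1.17- to 1.23-fold. Nfkbia fell most, and Rela, Relb, Nfkb2 and Birc3 also fell. The test was the quasi-likelihood test of edgeR, with p-values adjusted by Benjamini-Hochberg over the whole table. At a threshold of 0.05, it called 4 members higher and 5 lower. Of all genes tested, 63.5% were called in either direction, 32.8% higher and 30.8% lower, so 9 of 10 called is a share to be read against a background in which most genes differed. For the same 9 members the libraries of one line did not overlap those of the other, as was so for 68.3% of all genes. Tnfaip3 alone also changed by at least 1 on the log2 scale, which 12.7% of all genes did, and 91.2% of all genes tested had a smaller absolute log2 fold change. The median log2 fold change of the 10 members was -0.26, against 0.01 over all genes tested.

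**Figure D1:**
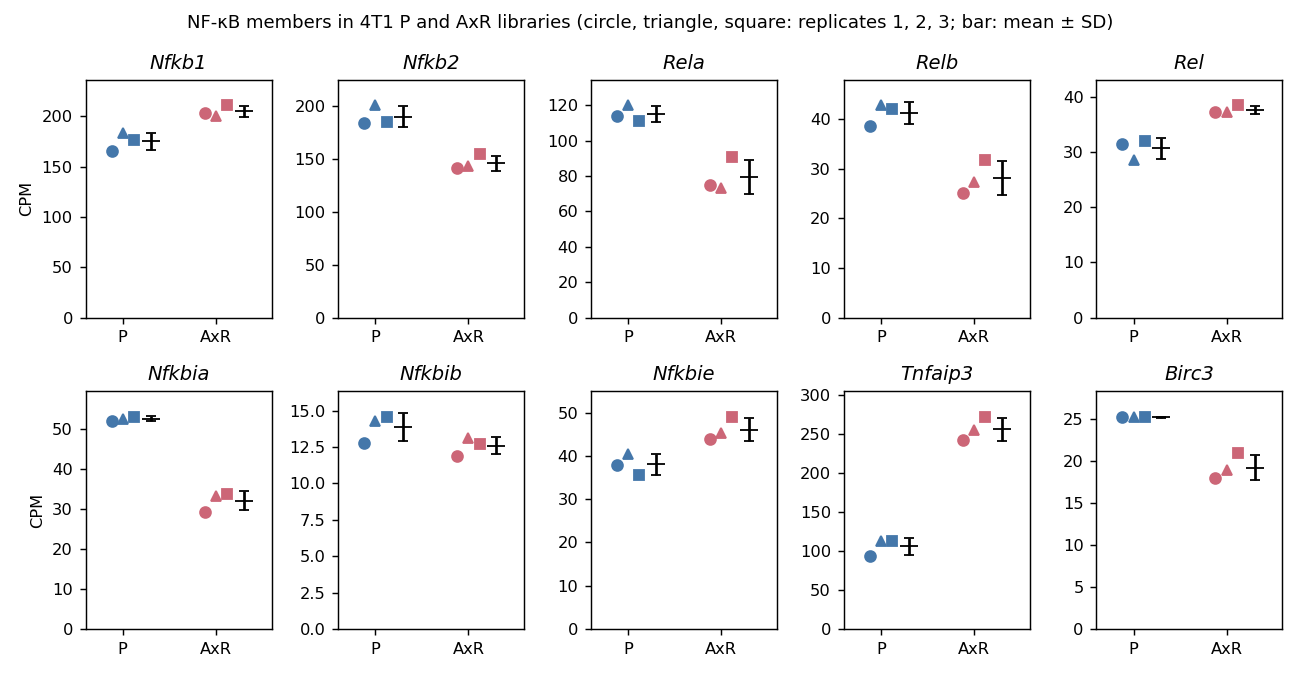
CPM (vertical axis, from 0) of the 10 members in each library of P and AxR cells, with circles, triangles and squares for replicates 1, 2 and 3 and a bar for the mean ± SD of 3. The AxR libraries lie above the P libraries for Nfkb1, Rel, Nfkbie and Tnfaip3, below them for Nfkb2, Rela, Relb, Nfkbia and Birc3, and overlap them for Nfkbib.

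Since NF-κB acts on its own family through κB sites, the sequence just before the start site of the members is shown for those that hold a match to the κB consensus. Windows holding the 250 bases before each RefSeq start (GRCm38.p6) were given for 8 members, and none for Nfkb1 and Relb. The 10-letter κB consensus motif was searched on both strands, and overlapping matches were counted separately. A match was found for 5 of the 8, in Nfkbia, Nfkbie, Rel, Tnfaip3 and Nfkb2. Rela, Nfkbib and Birc3 had none in these windows. Over all 27025 genes with a window, 8.23% held a match. The windows of Nfkbia (chr12:55492648-55492897, minus strand), Nfkbie (chr17:45555450-45555699, plus strand) and Rel (chr11:23770971-23771219, minus strand) lie outside annotated exons, apart from 1 base of the Rel window that is left off, and are printed 5′ to 3′ up to the start, with the matches in capitals. In Rel the capitals cover a pair of overlapping matches.
Nfkbia: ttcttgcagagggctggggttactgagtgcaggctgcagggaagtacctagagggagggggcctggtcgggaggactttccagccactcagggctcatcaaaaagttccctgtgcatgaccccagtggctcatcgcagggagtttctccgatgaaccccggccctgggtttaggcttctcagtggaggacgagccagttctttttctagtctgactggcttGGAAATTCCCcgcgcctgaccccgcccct
Nfkbie: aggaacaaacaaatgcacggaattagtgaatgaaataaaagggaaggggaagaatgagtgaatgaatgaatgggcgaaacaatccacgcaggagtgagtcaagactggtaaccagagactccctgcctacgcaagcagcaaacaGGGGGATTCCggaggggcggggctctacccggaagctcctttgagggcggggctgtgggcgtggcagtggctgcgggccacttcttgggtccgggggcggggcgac
Rel: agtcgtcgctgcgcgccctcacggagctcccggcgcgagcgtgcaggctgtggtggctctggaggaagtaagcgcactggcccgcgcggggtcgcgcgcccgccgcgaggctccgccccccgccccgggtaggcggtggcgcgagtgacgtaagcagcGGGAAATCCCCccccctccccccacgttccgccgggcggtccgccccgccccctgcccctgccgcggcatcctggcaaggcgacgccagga

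Most windows of Tnfaip3 and Nfkb2 with a match overlap annotated exons, and for both genes short stretches around a match are printed, again with the match in capitals. Tnfaip3 held matches at chr10:19015516-19015545 and chr10:19015411-19015432 on the minus strand, within the gene but outside its exons. Nfkb2 has 3 windows with 5 matches in all, and 1 stretch from each is shown, at chr19:46304688-46304717, chr19:46305449-46305478 and chr19:46305695-46305724 on the plus strand. The first and the last fall in annotated exon sequence, and the middle one does not. In the first stretch another match overlaps the printed one, starting at the next base, and its last base is not in capitals.
Tnfaip3, first: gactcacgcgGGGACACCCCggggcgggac
Tnfaip3, second: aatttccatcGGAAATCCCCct
Nfkb2, first: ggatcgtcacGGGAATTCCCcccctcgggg
Nfkb2, middle: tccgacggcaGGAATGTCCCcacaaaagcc
Nfkb2, last: tggtattttcGGGACTTTCCtaagcagcac
Of the 5 members with a match, 3 were higher in AxR cells (Tnfaip3, Rel and Nfkbie) and 2 were lower (Nfkbia and Nfkb2). A match is a description of the letters and not a measured binding site.

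Nfkb1 and Nfkb2 encode the long precursors that are processed into the small DNA-binding subunits. Nfkb1 (ENSMUSG00000028163.17, chromosome 3 of GRCm38 from 135584655 to 135691547, minus strand) had 166, 183 and 176 CPM in P replicates 1 to 3 and 203, 200 and 211 CPM in AxR replicates 1 to 3. Every AxR library was above every P library, by a modest margin. The mean went from 175 ± 8.5 to 205 ± 5.51 CPM (SD, n = 3 each, log2 fold change 0.23 ± 0.0512 SE, adjusted p = 0.00120). Over the tested genes of chromosome 3 the median log2 fold change was 0.32, and the 50 tested genes nearest to Nfkb1 had a median of 0.58, so the rise of Nfkb1 was smaller than that of its surroundings.

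Nfkb2 (ENSMUSG00000025225.14, chromosome 19 from 46304320 to 46312385, plus strand) had 184, 201 and 185 CPM in the P libraries and 142, 143 and 155 CPM in the AxR libraries. All 3 AxR libraries were below all 3 P libraries. The mean fell from 190 ± 10 to 146 ± 7.13 CPM (SD, n = 3 each, log2 fold change -0.38 ± 0.0554 SE, adjusted p = 2.73e-05). The median of chromosome 19 was 0.00 and that of the 50 nearest tested genes 0.13.

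Rela, Relb and Rel encode the subunits with a transactivation domain. Rela (ENSMUSG00000024927.7, chromosome 19 from 5637483 to 5648130, plus strand), the partner in the most common dimer, had 114, 120 and 111 CPM in P libraries and 74.9, 73.1 and 90.7 CPM in AxR libraries. AxR replicate 3 was the highest of its line, yet below every P library. The mean fell from 115 ± 4.57 to 79.6 ± 9.70 CPM (SD, n = 3 each, log2 fold change -0.53 ± 0.0740 SE, adjusted p = 2.23e-05). Relb (ENSMUSG00000002983.17, chromosome 7 from 19606217 to 19629438, minus strand), the subunit of the noncanonical route, had 38.7, 42.8 and 42.0 CPM in P libraries and 25.1, 27.3 and 31.8 CPM in AxR libraries. Its log2 fold change was -0.55 ± 0.0849 (SE, adjusted p = 4.23e-05), the lowest among the subunits, beside a chromosome 7 median of 0.18. As for Rela, AxR replicate 3 lay nearest to the P libraries. Without it the log2 fold change was -0.63 for Rela and -0.65 for Relb. This replicate was also the highest AxR library for every other member except Nfkbib.

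Rel (ENSMUSG00000020275.9, chromosome 11 from 23736847 to 23770970, minus strand), which encodes c-Rel, a subunit best known from lymphocytes, moved the other way. It had 31.5, 28.5 and 32.1 CPM in P libraries and 37.3, 37.2 and 38.5 CPM in AxR libraries. The groups did not overlap, and the AxR libraries lay close together. The mean rose from 30.7 ± 1.94 to 37.7 ± 0.725 CPM (SD, n = 3 each, log2 fold change 0.30 ± 0.0697 SE, adjusted p = 0.00160), beside medians of 0.01 on chromosome 11 and -0.01 over the 50 nearest tested genes.

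Among the inhibitors, Nfkbia encodes IκBα, the fast-responding inhibitor that NF-κB itself induces (ENSMUSG00000021025.8, chromosome 12 from 55489410 to 55492647, minus strand). Its level was 52.0, 52.5 and 53.1 CPM in P libraries and 29.3, 33.2 and 33.8 CPM in AxR libraries. The P libraries were nearly equal, and every AxR library lay far below them. The mean fell from 52.6 ± 0.555 to 32.1 ± 2.42 CPM (SD, n = 3 each, log2 fold change -0.71 ± 0.0683 SE, adjusted p = 3.32e-07), which was the largest fall among the members. The medians of chromosome 12 and of the 50 nearest tested genes were 0.00 and -0.03.

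Nfkbie encodes IκBε, a slower inducible inhibitor (ENSMUSG00000023947.7, chromosome 17 from 45555703 to 45563169, plus strand), and it was higher in AxR cells. It had 38.0, 40.5 and 35.7 CPM in P libraries and 43.9, 45.3 and 49.1 CPM in AxR libraries, without overlap. Its log2 fold change was 0.28 ± 0.0704 (SE, adjusted p = 0.00302), and the 50 nearest tested genes had a median of 0.24, close to this value. Nfkbib encodes IκBβ, an inhibitor that is not part of the rapid feedback loop (ENSMUSG00000030595.15, chromosome 7 from 28758251 to 28767512, minus strand). It was the lowest of the 3 inhibitors in both lines, with 12.8, 14.3 and 14.6 CPM in P libraries and 11.9, 13.1 and 12.7 CPM in AxR libraries. These groups overlapped, and the log2 fold change of -0.14 ± 0.0945 (SE, adjusted p = 0.210) did not pass the threshold.

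Tnfaip3 encodes A20, a ubiquitin-editing enzyme that ends signalling from the TNF receptor (ENSMUSG00000019850.11, chromosome 10 from 19000910 to 19015657, minus strand). It had 93.4, 113 and 112 CPM in P libraries and 242, 255 and 272 CPM in AxR libraries. The lowest AxR library stood well above the highest P library. The mean rose from 106 ± 10.9 to 256 ± 14.8 CPM (SD, n = 3 each, log2 fold change 1.27 ± 0.0706 SE, adjusted p = 1.86e-09). The median over chromosome 10 was 0.25 and that over the 50 nearest tested genes 0.49, both below the value of Tnfaip3.

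Birc3 encodes cIAP2, a ubiquitin ligase that acts next to the TNF receptor and blocks cell death (ENSMUSG00000032000.17, chromosome 9 from 7848699 to 7873186, minus strand). It had 25.3, 25.2 and 25.2 CPM in P libraries and 18, 18.9 and 20.9 CPM in AxR libraries. No AxR library reached the P level, and the mean fell from 25.2 ± 0.0558 to 19.2 ± 1.49 CPM (SD, n = 3 each). The log2 fold change was -0.39 ± 0.0771 (SE, adjusted p = 4.22e-04), where chromosome 9 had a median of -0.23 and the 41 nearest tested genes a median of -0.03. In 4 of the 6 libraries its estimated count was not whole, as happens where RSEM divides a read between genes. The related gene Birc2 lies on the same chromosome, and its log2 fold change was 0.07 ± 0.0686 (SE, adjusted p = 0.394).

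For the 9 members that did not overlap, each exact two-sided permutation test over the 6 libraries gave p = 0.1, the smallest that 3 libraries against 3 allow, and for Nfkbib it gave 0.2. The 9 calls and their directions held under all 13 alternatives fitted across all genes, and Nfkbib passed in 0 of the 13.

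**Figure D2:**
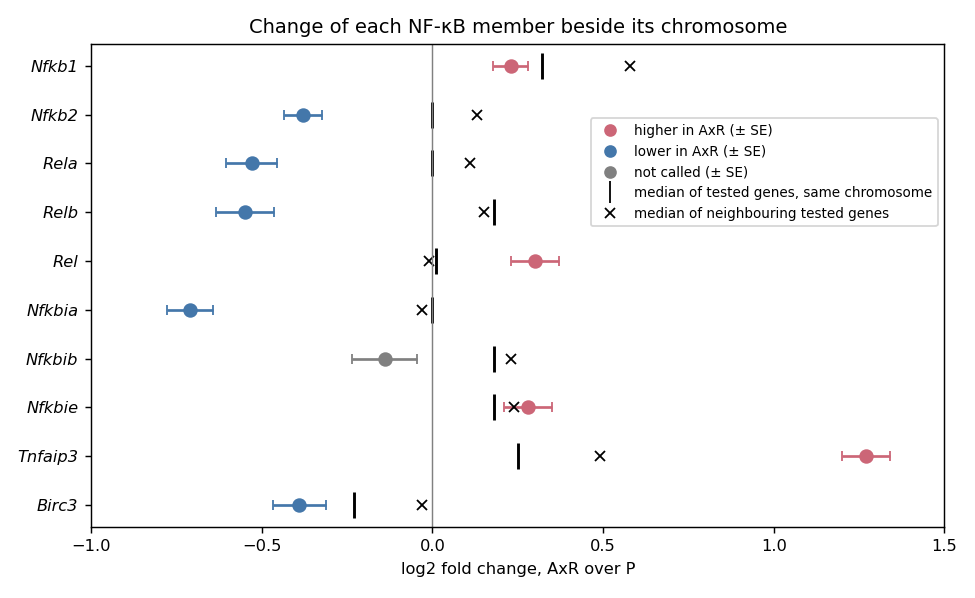
Log2 fold change of AxR over P (horizontal axis) for each member with its standard error, in red where called higher, blue where called lower and grey where not called. The upright tick is the median of tested genes on the same chromosome and the cross that of the nearest tested genes. Tnfaip3 at 1.27 lies far to the right of both, and Nfkb1 at 0.23 lies to the left of both.

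Levels of different genes were compared as CPM per kb of the longest principal transcript. In P cells Nfkb2 was the most abundant member, with 60.5 ± 3.19 CPM per kb (SD, n = 3), followed by Nfkb1 with 42.5 ± 2.07, Rela with 42.3 ± 1.68, and Nfkbia with 33.3 ± 0.352. Tnfaip3 (24.0 ± 2.46), Relb (18.6 ± 0.976), Nfkbie (15.6 ± 0.988), Birc3 (9.46 ± 0.0209), Nfkbib (6.73 ± 0.475) and Rel (4.11 ± 0.260) followed in the same unit. Nfkb1 and Rela could not be ordered, because their libraries overlapped. In AxR cells Tnfaip3 moved to the first place with 57.9 ± 3.34 CPM per kb, ahead of Nfkb1 (49.7 ± 1.34) and Nfkb2 (46.6 ± 2.27), which overlapped each other. Rela had 29.3 ± 3.57, Nfkbia 20.4 ± 1.54 and Nfkbie 18.9 ± 1.10 CPM per kb, and the last of these overlapped Nfkbia. Relb, Birc3, Nfkbib and Rel were the lowest, with 12.7 ± 1.55, 7.21 ± 0.558, 6.11 ± 0.294 and 5.05 ± 0.0971 CPM per kb. The places of several members depend on the length used. Divided by all annotated exons, 12061 bases instead of 4117, Nfkb1 fell to the fifth place in both lines. In P cells its libraries overlapped those of Tnfaip3 (14.5 ± 0.705 and 14.7 ± 1.51 CPM per kb). On this scale Nfkbie stood above Relb in P cells (12.5 against 10.6 CPM per kb). Birc3 fell below Nfkbib in P cells (5.04 against 6.40) and to the last place in AxR cells (3.84). Tnfaip3 was again first in AxR cells but overlapped Nfkb2.

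The subunit transcripts summed to 168 ± 7.02 CPM per kb in P and 143 ± 8.67 in AxR cells (SD, n = 3 each), and the groups did not overlap. Within this sum the share of Nfkb1 rose from 25.3% ± 0.499 to 34.7% ± 1.19, and that of Rel from 2.45% ± 0.246 to 3.53% ± 0.141. The shares of Rela and Relb were lower in AxR cells, 20.4% ± 1.23 against 25.2% ± 0.583 and 8.84% ± 0.597 against 11.1% ± 0.342, and that of Nfkb2 was 32.5% ± 0.389 against 36% ± 0.493. Each of these shares was separated between the lines (exact two-sided permutation p = 0.1, the smallest possible, for each of the 5). The shares of a library make up a whole, so these tests are not independent, and a share can rise because others fall. With all annotated exons as length the shares kept their directions, but their sizes moved. The rise of Nfkb1 was 6.11 instead of 9.45 percentage points and that of Rel 2 instead of 1.07. The difference for Nfkb2 was -1.62 instead of -3.46 and that for Relb -1.53 instead of -2.25, while Rela had -4.96 and -4.81.

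The 3 inhibitor transcripts summed to 55.7 ± 1.05 CPM per kb in P and 45.4 ± 2.70 in AxR cells (SD, n = 3 each). Nfkbia held 59.8% ± 1.13 of this sum in P and 44.8% ± 0.967 in AxR cells, whereas Nfkbie went from 28.1% ± 1.46 to 41.7% ± 1.15. In AxR replicates 1 to 3 the shares were 43.8%, 45.7% and 44.9% for Nfkbia and 42.5%, 40.4% and 42.2% for Nfkbie. With all annotated exons as length the gap was wider, 47.8%, 49.7% and 48.9% against 37.8%, 35.8% and 37.5%. Nfkbib had 12.1% ± 0.747 in P and 13.5% ± 0.503 in AxR cells. Its shares did not overlap although its level by itself did (exact two-sided permutation p = 0.1 for all 3 shares). Here too the shares depend on each other, and the larger share of Nfkbib is not a rise of its level.

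**Figure D3:**
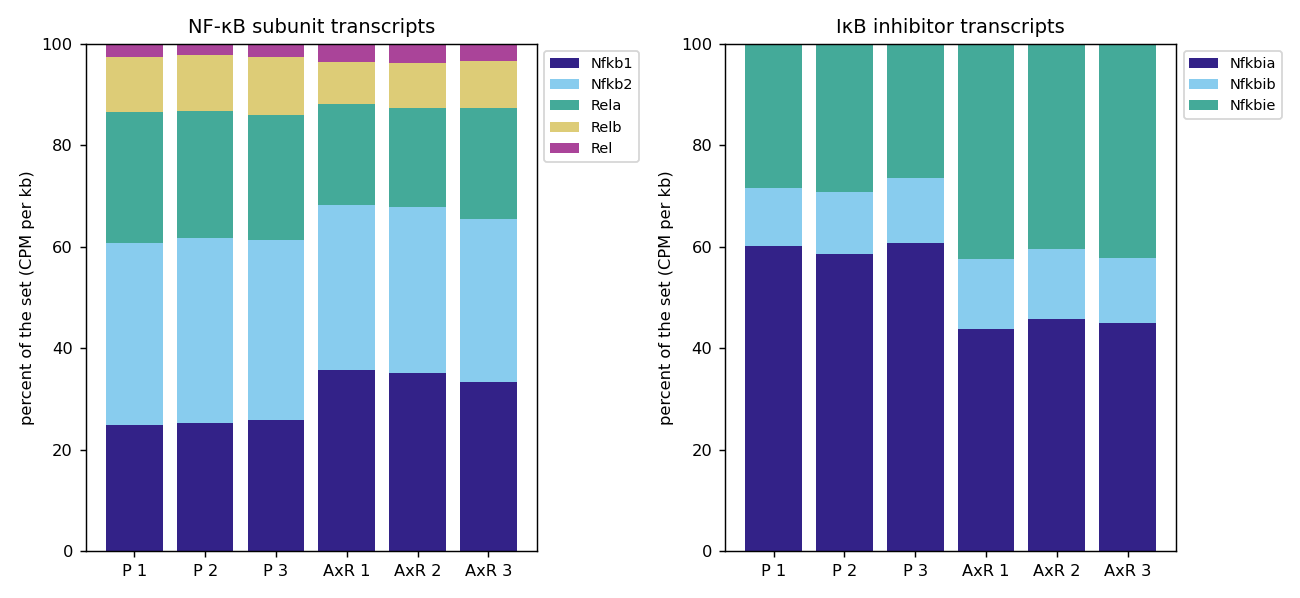
Share (vertical axis, percent) of each transcript in the summed CPM per kb of the 5 subunits (left) and the 3 inhibitors (right), with 1 bar per library. The Nfkb1 part is larger in each AxR bar, near 34.7% on average against 25.3%, and the Nfkbia part is smaller, near 44.8% against 59.8%.

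Ratios within a library need no scaling between libraries. The log2 ratio of Nfkb2 to Nfkb1, per transcript length, was 0.54, 0.53 and 0.46 in P and -0.13, -0.10 and -0.06 in AxR libraries. The difference was -0.60 (exact two-sided permutation p = 0.1) and does not depend on the lengths used. Which of the precursors was higher in AxR cells does depend on them, since their levels overlapped per principal transcript and, per kb of all annotated exons, Nfkb2 had 31.9 ± 1.56 and Nfkb1 17 ± 0.457 CPM (SD, n = 3 each). The log2 ratio of Nfkbia to Rela was -0.35, -0.41 and -0.28 in P and -0.57, -0.35 and -0.64 in AxR libraries. These groups overlapped, and the difference of -0.18 had an exact two-sided permutation p of 0.2. A further 3 ratios were chosen after the values were seen. Tnfaip3 to Nfkbia, 2 of the inducible brakes, went from a mean log2 ratio of -0.48 ± 0.141 to 1.51 ± 0.0537 (SD, n = 3 each), a 3.97-fold change. Nfkbie to Nfkbia differed by 0.99 and Rel to Rela by 0.83 on the log2 scale. These 3 ratios did not overlap between the lines. Each set a member that rose without overlap over another that fell without overlap, so this adds no evidence beyond the single genes.

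**Figure D4:**
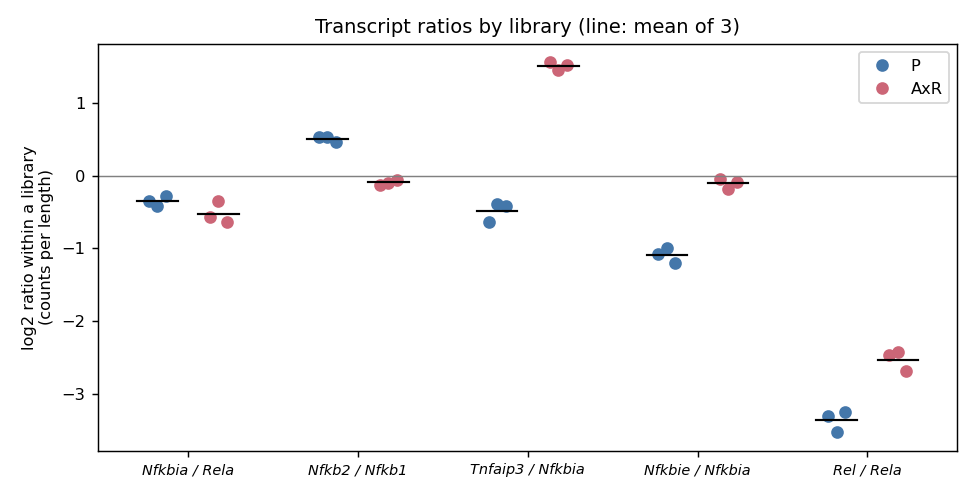
Log2 ratio of a pair of transcripts within each library (vertical axis, counts per transcript length with 0.5 added to each count), 3 P and 3 AxR libraries per pair, with a line at the mean. Tnfaip3 to Nfkbia, a pair chosen after the values were seen, is below 0 in each P library and near 1.51 in AxR libraries. Nfkbia to Rela overlaps.

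Beyond the members, 76 other genes of the pathway were listed by role, of which 63 were tested. The same edgeR test called 25 of them higher and 19 lower in AxR cells. Their log2 fold changes had a median of 0.06. With 44 of 63 called, beside 63.5% of all genes, the lists are described by their members.

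All 6 genes of the list of the IKK complex and related kinases were called, 3 in each direction. The regulatory subunit Ikbkg (NEMO) rose from 39.3 ± 2.30 to 55.8 ± 2.30 CPM (SD, n = 3 each, log2 fold change 0.50 ± 0.0657 SE, adjusted p = 7.68e-06). The catalytic subunit Ikbkb fell from 79.1 ± 4.11 to 59.5 ± 2.57 CPM (log2 fold change -0.41 ± 0.0594 SE, adjusted p = 2.19e-05). Chuk, the other catalytic subunit, had a log2 fold change of -0.18 (adjusted p = 0.0150), and the adjusted p was 0.117 without P replicate 3 and 0.0778 without AxR replicate 2. Tbk1, an IKK-related kinase of the interferon response, rose by 0.49 on the log2 scale (adjusted p = 8.40e-06). Its relative Ikbke had a log2 fold change of 0.34 (adjusted p = 0.0168), with 0.0988 without AxR replicate 2 and 0.0577 by DESeq2. Map3k14, which encodes NIK, had a log2 fold change of -0.23 (adjusted p = 0.0258). Without P replicate 2, AxR replicate 1 or AxR replicate 2 its adjusted p was 0.167, 0.105 and 0.0600. Over all alternatives the adjusted p lay between 0.00542 and 0.117 for Chuk, between 0.0109 and 0.0988 for Ikbke, and between 0.00428 and 0.167 for Map3k14.

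The atypical IκB proteins act in the nucleus rather than the cytoplasm. Nfkbid had 6, 9 and 3 counts in P and 26, 23 and 23 counts in AxR libraries (log2 fold change 1.99 ± 0.362 SE, adjusted p = 2.02e-04), at a level of 1.48 ± 0.172 CPM in AxR cells. Nfkbiz fell from 21.1 ± 1.3 to 15.8 ± 2.36 CPM (SD, n = 3 each), with a log2 fold change of -0.42 (adjusted p = 0.00224), on chromosome 16 with a median of -0.32. Bcl3, with at most 58 counts in a library, had a log2 fold change of 0.59 (adjusted p = 0.0339). It missed the threshold by DESeq2 (adjusted p = 0.109) and without P replicate 1, P replicate 2, AxR replicate 2 or AxR replicate 3 (adjusted p = 0.11, 0.0907, 0.0546 and 0.148), and its adjusted p ranged from 0.0220 to 0.148 over all alternatives.

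Of the 12 genes of the TNF receptor list, 6 were higher, 1 was lower and 5 did not pass. Of the 6 calls, those of Traf5 and Tnfrsf1a were lost in 11 and 3 of the 13 alternatives. Traf5, with at most 53 counts in a library, had a log2 fold change of 0.54 (adjusted p = 0.0481, 0.0223 to 0.191 over the alternatives). For Tnfrsf1a it was 0.19 (adjusted p = 0.0168), and the adjusted p was 0.0512 with library size only, 0.0883 without P replicate 3 and 0.0645 without AxR replicate 2 (range 0.00767 to 0.0883). Traf5 also missed the threshold without any 1 library other than AxR replicate 1, with a log2 fold change of 0.39 without AxR replicate 3. Tnfrsf1b, the second TNF receptor, rose from 33 ± 0.7 to 73.4 ± 5.11 CPM (SD, n = 3 each, log2 fold change 1.15 ± 0.0656 SE, adjusted p = 9.94e-10). The TAB adaptors of the kinase TAK1 rose together, with log2 fold changes of 0.51 for Tab1, 0.58 for Tab2 and 0.45 for Tab3. Tab2 lies on chromosome 10 and Tab3 on chromosome X, whose medians were 0.25 and 0.24. Traf3, which restrains NIK, fell by 0.19 on the log2 scale (adjusted p = 0.00406).

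Of 14 other receptors and adaptors, 4 were higher and 4 lower. Among these calls that of Irak4 (log2 fold change 0.28, adjusted p = 0.0140) was lost by DESeq2 (adjusted p = 0.0747) and without P replicate 2 (adjusted p = 0.064). Both chains of the IL-1 receptor fell, Il1r1 from 30.4 ± 1.47 to 12.6 ± 0.355 CPM (log2 fold change -1.27, adjusted p = 2.07e-09) and Il1rap from 39.7 ± 1.06 to 17.9 ± 1.06 CPM (log2 fold change -1.15, adjusted p = 3.35e-09). The Toll-like receptors Tlr3, a sensor of double-stranded RNA, and Tlr2 rose, from 35.2 ± 2.29 to 97.9 ± 4.82 CPM and from 9.80 ± 0.668 to 26.3 ± 2.93 CPM (log2 fold changes 1.47 and 1.42). Cd40, a receptor of the noncanonical route, had 16, 22 and 21 counts in P and 7, 4 and 9 counts in AxR libraries (log2 fold change -1.54, adjusted p = 0.00165). Of 11 genes of ubiquitin editing, 10 were tested, 5 were higher and 3 lower. Of these 8 calls, 4 were lost in some of the 13 alternatives, namely Rnf31 in 9, Otulin in 6, Otud7b in 3 and Cyld in 2. Their adjusted p-values were 0.0453, 0.0249, 0.0204 and 0.00901, and rose to at most 0.191, 0.115, 0.0783 and 0.0686. Libraries whose removal lost a call were P replicates 1 and 3 and AxR replicates 2 and 3 for Rnf31, P replicates 1 and 3 and AxR replicate 1 for Otulin, P replicate 1 and AxR replicate 3 for Otud7b, and P replicate 3 and AxR replicate 2 for Cyld. The largest change among them was a fall of the ligase Itch from 180 ± 7.65 to 113 ± 1.64 CPM (log2 fold change -0.67, adjusted p = 2.37e-08). Tax1bp1, Sharpin and Rbck1 had log2 fold changes of 0.26, 0.33 and -0.26.

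Ligands that start the pathway were scarce. Of 8 listed, 2 were tested, and Tnf had at most 1 count in any library. Il1a, which encodes the cytokine IL-1α, was the exception, with 133, 136 and 129 counts in P and 6, 9 and 13 counts in AxR libraries. Its level fell from 8.12 ± 0.281 to 0.565 ± 0.179 CPM (SD, n = 3 each, log2 fold change -3.81 ± 0.209 SE, adjusted p = 6.61e-10). Il18 had 1.19 ± 0.337 CPM in P and 1.85 ± 0.344 CPM in AxR cells (adjusted p = 0.0614).

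The listed target genes moved in both directions. Of 22, 16 were tested, with 5 higher, 6 lower and 5 not called, and a median log2 fold change of -0.12. Mmp9, a matrix protease, fell from 82.7 ± 1.18 to 22.7 ± 0.558 CPM (log2 fold change -1.87, adjusted p = 2.38e-12). Traf1, an adaptor that binds cIAP proteins, fell from 160 ± 6.18 to 73.9 ± 7.21 CPM (log2 fold change -1.11, adjusted p = 1.70e-09), and Ptgs2, the inducible cyclooxygenase, from 743 ± 24.7 to 354 ± 19.9 CPM (log2 fold change -1.07, adjusted p = 1.58e-10). In the other direction, the chemokine Ccl5 had 1, 5 and 0 counts in P and 95, 98 and 86 counts in AxR libraries, and Cxcl10 had 6, 5 and 7 against 22, 36 and 30 counts (log2 fold changes 5.46 and 2.27). The size for Ccl5 is loosely set by the few P counts, with a range of 4.95 to 7.19 over the alternatives and the highest value without P replicate 2. Irf1, a transcription factor that interferons also induce, rose from 31.2 ± 1.70 to 83.9 ± 5.57 CPM (log2 fold change 1.42, adjusted p = 1.33e-10). Lcn2, a secreted iron-carrier-binding protein, rose from 4.96 ± 1.25 to 12.7 ± 3.68 CPM (log2 fold change 1.37, adjusted p = 0.00181).

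**Figure D5:**
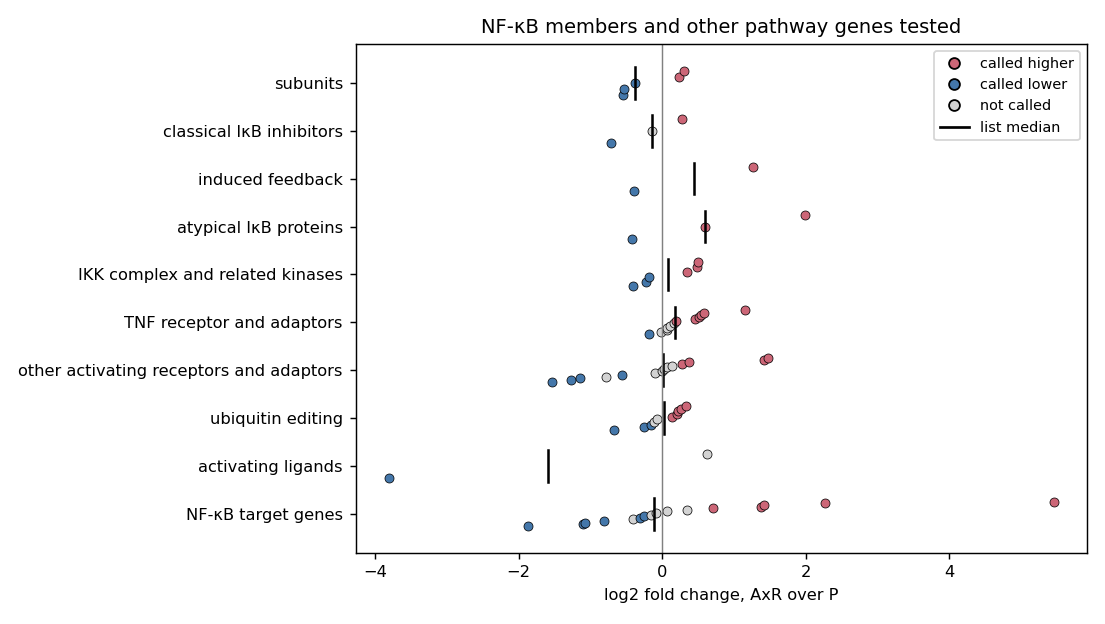
Log2 fold change of AxR over P (horizontal axis) for each tested gene of the member groups and the other pathway lists, red where called higher, blue where called lower and grey where not called, with a line at each list's median. Called genes lie on both sides of 0 in every list with more than 2 tested genes, and the extremes are Ccl5 at 5.46 (7.19 without P replicate 2) and Il1a at -3.81.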

How the data were processed

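Libraries were poly(A)-selected and stranded, 3 from P and 3 from AxR cells. Per the submitters' processing notes and methods, the authors used STAR 2.6.0a for alignment (GRCm38, GENCODE annotation) and deposited the expected counts per gene that RSEM 1.3.1 estimates, before filtering and normalization. RSEM divides reads that fit several genes, so such counts need not be whole.

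Here the counts were rounded, filtered with filterByExpr, scaled by upper quartile factors (0.966 to 1.02) and tested with edgeR 4.0.16 (quasi-likelihood test, robust, line as the only term), with Benjamini-Hochberg adjustment over 13550 genes and a threshold of 0.05. Gene symbols, positions and lengths came from GENCODE M21, also on GRCm38, which named 53360 of the 53465 identifiers. Promoter windows came from RefSeq. Ratios and the exact permutation tests on single genes and ratios added 0.5 to each count, and the exact tests on shares added nothing. The calling was tested beforehand on simulated counts in which far fewer genes changed than here, each by 1 on the log2 scale. That test did not cover smaller changes or a shift of most genes. Floors cover counting error only.

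The members and lists were chosen with earlier results of these data known. Named were all members, all IKK genes, and of every other list those that passed with a log2 fold change of 1 or more in size, and up to 4 of the largest that passed. Tab3, Birc2, Traf3, Tnfrsf1a, Irak4, Rnf31, Otulin, Otud7b, Cyld, Il18, Tnf, Cd83 and the marker genes lie outside that rule. They were picked with their values in view. Alternatives were TMM factors, library size only, DESeq2 1.42.0, limma-voom (limma 3.58.1), other low-count filters, a replicate block, each library left out, and an added fold threshold. Lengths from all exons were added after the data were seen.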

Additional observations from a re-analysis of the deposited data

How the results depend on the processing

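Under TMM factors, library size only, DESeq2, limma-voom, both other low-count filters, the replicate block and each library left out in turn, 4 members were higher and 5 lower, and all 10 kept the sign of their log2 fold change. Adding a minimum size of 1 for the log2 fold change left 1 member higher (Tnfaip3) and 0 lower, also 0 at an unadjusted p under 0.05 by edgeR and 0 by DESeq2. It left 8 pathway genes higher and 7 lower, and 1084 of all genes higher and 640 lower, which follows from the added criterion. With each library left out, the log2 fold change of Tnfaip3 lay between 1.19 and 1.32, of Nfkbia between -0.75 and -0.65, of Rela between -0.63 and -0.47 and of Nfkb1 between 0.19 and 0.26. The log2 ratio of Nfkb2 to Nfkb1 differed by -0.63 to -0.59, and that of Nfkbia to Rela by -0.26 to -0.12. The latter was largest without AxR replicate 2 and smallest without AxR replicate 3, and the cause was not tested.

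Libraries with the same replicate number did not deviate together (r from -0.0218 to -0.00621 over 13550 genes), and no library correlated best with its own number. The numbers were therefore not taken to pair the samples, although values this near 0 cannot show how the libraries were prepared. With the replicate block the members' counts were 4 and 5, those of the pathway genes 23 and 19, and those of all genes 4303 and 4023. Of the 44 pathway genes called, 33 were called in every alternative that tested them and 11 were lost in at least 1, and 6 others were gained in at least 1. At this depth a count of 0, as for Cd83, allows a level of up to 0.171 to 0.196 CPM, depending on the library, by counting error alone.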
